A study of Mus musculus with 29 samples.

Results

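The regions described here are stretches of the mouse genome labelled type 4 in a segmentation of the Polycomb mark H2Aub and bordered on each side by type 5. They were found by sorting the segments by chromosome and start, joining touching segments of the same type (0 had to be joined), and keeping each type 4 segment whose neighbours before and after were both of type 5. This gave 1157 domains of 31563 segments. They made up 24.4% of the 4751 type 4 segments and 15.9% of the 335 Mb of type 4, and covered 53.4 Mb, or 2.17% of the 2464 Mb segmented over chromosomes 1 to 19. The type labels and their order chose the domains, so their number and their type 5 borders are a description and not a finding. The choice has no numeric threshold. Of the domains, 1154 touch both neighbours and 3 overlap a neighbour. Just outside the choice lie 3 type 4 segments of 10 to 15 kb that have type 5 on one side and another type 4 segment on the other.

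H2Aub is histone H2A carrying a single ubiquitin at lysine 119, a mark written by Polycomb repressive complex 1 and removed by the deubiquitinase PR-DUB. Polycomb repressive complex 2, of which Eed is a core subunit, writes H3K27me3, and in many tissues both marks cover the CpG-rich starts of silent developmental genes. In mouse oocytes and early embryos both marks also spread over broad domains away from such starts, and maternal H3K27me3 silences the maternal copy of a small group of imprinted genes.

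The study profiled the marks by CUT&RUN (an antibody against the mark brings a nuclease to it, and the cut fragments are sequenced) in 29 libraries, 24 of H2Aub and 5 of H3K27me3. Wild-type H2Aub libraries ran from germinal vesicle oocytes through preimplantation embryos to epiblast. By their labels, those of germinal vesicle oocytes came from B6/129 mixed Eed (fl/fl) females, those of metaphase II oocytes from B6/DBA, and the embryos from B6/129 mixed Eed (fl/fl) or B6/DBA WT animals crossed with PWK. The maternal knockout libraries carried Gdf9-Eed (fl/fl), in which the Gdf9 promoter, active in growing oocytes, drives the deletion. Embryos from that cross keep the allele of their wild-type PWK father. The knockout libraries are of H2Aub in germinal vesicle oocytes, 4-cell embryos and morulae. The PR-DUB groups, B6/DBA x PWK 4-cell embryos, are labelled PR-DUP (CTR) and PR-DUP (OE). Each has 1 library of H2Aub and 2 of H3K27me3. The other H3K27me3 library is of wild-type germinal vesicle oocytes. The segmentation has no column for any library, so no domain has a value by stage, genotype or treatment, no replicate spread exists, and every comparison below is between classes of regions and is untested. The sources used here give no key to the 5 types and do not say which libraries the segmentation was built from.

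The sequences that the description turns on are those at gene starts inside the domains. Each is the 200 bases before an annotated start, from RefSeq on GRCm38.p6 (the build also called mm10), read 5′ to 3′ along the gene, with CG dinucleotides in capitals. The first set stands at 4 genes whose domain has more than 200 kb of type 5 on both sides.
Pcdh17, chr14:84443363-84443562, plus strand: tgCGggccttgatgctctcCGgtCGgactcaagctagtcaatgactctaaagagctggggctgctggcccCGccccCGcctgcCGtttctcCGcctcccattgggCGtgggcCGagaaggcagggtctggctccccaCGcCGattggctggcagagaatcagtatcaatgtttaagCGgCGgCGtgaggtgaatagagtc
Isl1, chr13:116309689-116309888, minus strand: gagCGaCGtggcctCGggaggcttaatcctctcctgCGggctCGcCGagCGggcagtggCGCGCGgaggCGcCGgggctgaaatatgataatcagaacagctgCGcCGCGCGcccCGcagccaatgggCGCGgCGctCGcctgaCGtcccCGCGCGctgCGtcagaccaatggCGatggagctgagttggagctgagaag
Dlgap1, chr17:69968873-69969072, plus strand: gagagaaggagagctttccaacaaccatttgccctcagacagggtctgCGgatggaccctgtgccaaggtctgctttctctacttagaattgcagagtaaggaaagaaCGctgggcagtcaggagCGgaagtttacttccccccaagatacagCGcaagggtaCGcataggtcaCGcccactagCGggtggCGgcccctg
Htr1b, chr9:81633833-81634032, minus strand: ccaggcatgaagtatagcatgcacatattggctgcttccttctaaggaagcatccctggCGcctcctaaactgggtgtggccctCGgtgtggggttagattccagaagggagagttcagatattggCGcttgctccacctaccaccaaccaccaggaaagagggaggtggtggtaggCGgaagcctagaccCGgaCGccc

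Pcdh17 encodes a protocadherin, Isl1 a LIM-homeodomain factor of motor neurons and heart progenitors, Dlgap1 a scaffold protein of the postsynaptic density and Htr1b a serotonin receptor. CG, which reads the same on both strands, occurs 27 times in the Isl1 sequence, and 6.27% of the 20077 start windows of protein-coding genes hold as many in the same 200 bases. It occurs 14 times at Pcdh17 (34.6% of windows hold as many), 8 times at Dlgap1 (53.3%) and 6 times at Htr1b (59.6%). The Isl1 sequence is therefore CpG-rich among all starts, while those of Dlgap1 and Htr1b are ordinary.

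The second set stands at imprinted genes inside the domains. Gab1, an adaptor of growth factor receptors, is among the genes whose maternal copy is silenced through oocyte H3K27me3, while Ndn, Magel2 and Peg12 belong to the imprinted Prader-Willi and Angelman syndrome region, where DNA methylation is the imprint.
Gab1, chr8:80880520-80880719, minus strand: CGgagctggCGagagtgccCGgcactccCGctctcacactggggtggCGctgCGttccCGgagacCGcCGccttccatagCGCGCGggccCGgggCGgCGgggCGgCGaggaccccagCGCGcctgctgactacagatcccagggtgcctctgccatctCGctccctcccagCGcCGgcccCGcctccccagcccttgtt
Ndn, chr7:62348077-62348276, plus strand: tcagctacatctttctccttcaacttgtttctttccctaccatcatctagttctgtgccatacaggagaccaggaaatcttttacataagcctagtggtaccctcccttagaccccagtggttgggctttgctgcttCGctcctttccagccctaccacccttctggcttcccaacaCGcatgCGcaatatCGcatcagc
Magel2, chr7:62376779-62376978, plus strand: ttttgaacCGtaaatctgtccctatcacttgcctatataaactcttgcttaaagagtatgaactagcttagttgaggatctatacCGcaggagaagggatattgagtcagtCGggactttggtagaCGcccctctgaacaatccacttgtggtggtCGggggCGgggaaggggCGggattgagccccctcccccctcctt
Peg12, chr7:62464511-62464710, minus strand: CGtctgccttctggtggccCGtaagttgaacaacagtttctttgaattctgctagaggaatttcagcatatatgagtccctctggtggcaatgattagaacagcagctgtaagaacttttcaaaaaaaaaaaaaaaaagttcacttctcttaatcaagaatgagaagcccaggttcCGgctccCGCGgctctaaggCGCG

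The Gab1 sequence holds 23 CG, a number that 11.5% of windows reach. Those of Magel2 and Peg12 hold 7 each, reached by 56.3% of windows, and that of Ndn holds 4, reached by 68.3%. The third set shows the other end of the range, the starts of olfactory receptor genes, which are read in single sensory neurons of the nose. Neither sequence holds a CG.
Olfr547, chr7:102534549-102534748, plus strand: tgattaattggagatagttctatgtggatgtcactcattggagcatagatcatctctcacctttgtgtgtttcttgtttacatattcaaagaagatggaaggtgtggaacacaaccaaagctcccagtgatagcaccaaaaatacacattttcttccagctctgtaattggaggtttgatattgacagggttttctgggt
Olfr95, chr17:37211852-37212051, minus strand: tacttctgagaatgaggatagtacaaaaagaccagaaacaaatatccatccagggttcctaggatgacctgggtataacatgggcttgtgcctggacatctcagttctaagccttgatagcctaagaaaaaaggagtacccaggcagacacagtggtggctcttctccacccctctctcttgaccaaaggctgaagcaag

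The domains were short. Their median length was 30 kb, with quartiles of 15 and 55 kb, a range of 10 to 540 kb and a mean of 46.1 kb ± 50.5 (SD over the 1157 domains). Segment ends lie on a 5 kb grid. There were 164 domains of 10 kb (14.2%) and 0 of 5 kb, although 139 type 4 segments elsewhere were of 5 kb. This is not particular to the domains, since type 4 between type 3 also had no segment under 10 kb. At the other end, 109 (9.42%) were longer than 100 kb and 21 longer than 200 kb. The 1612 type 4 segments that lie between type 3 segments were longer, with a median of 52.5 kb and quartiles of 25 and 110 kb. Type 4 between types 3 and 5 had a median of 50 kb. Type 4 with other neighbours had the same median as the domains, 30 kb, with quartiles of 15 and 75 kb.

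The type 5 around them came in segments of 5 to 5875 kb. For each domain the shorter of its flanks had a median of 20 kb (quartiles 10 and 40 kb, highest 2705 kb), and the longer a median of 60 kb. Both flanks were shorter than the domain itself at 369 domains (31.9%) and both were longer at 405 (35.0%). At many domains, therefore, type 5 forms narrow borders and not a wide surround. Longer domains tended to have a shorter narrow flank: over the 1157 domains Spearman's rho between length and shorter flank was -0.32 and Pearson's r of the logarithms was -0.33. Neighbouring domains share flanks, so these points are not independent. The plot of length against flank shows the 34 domains with more than 200 kb of type 5 on both sides as a sparse group, of which 30 were 10 to 20 kb long.

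**Figure D1:**
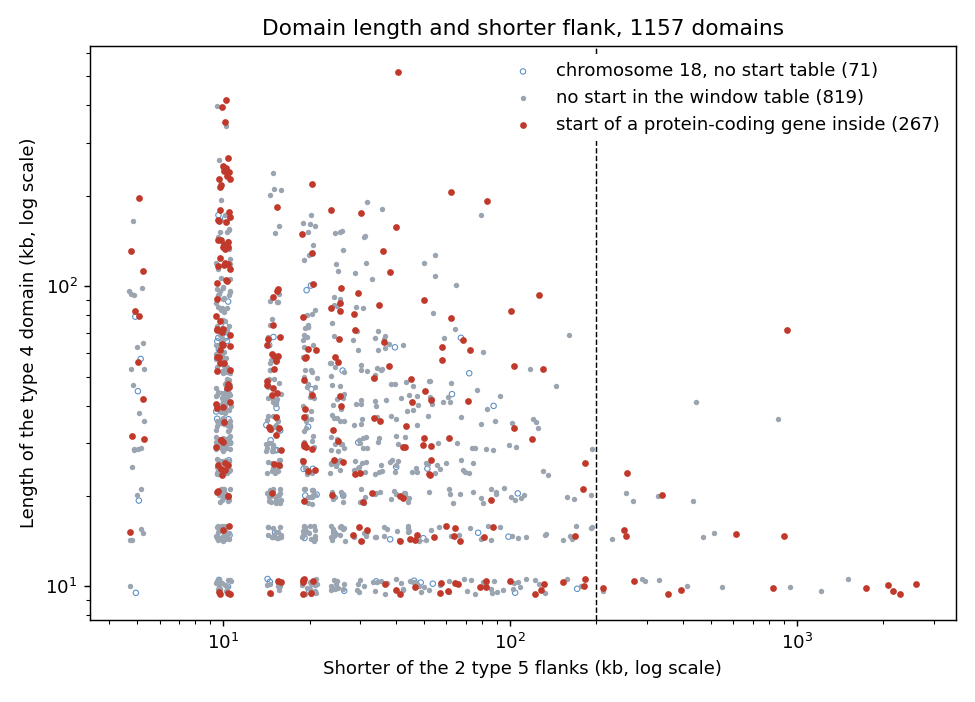
Length of each of the 1157 domains against the shorter of its type 5 flanks, both in kb on log scales, with red points for the 267 domains that hold the start of a protein-coding gene, grey for those that do not and open blue for the 71 on chromosome 18, for which no start was analysed. Points are shifted slightly at random so that equal values on the 5 kb grid can be seen, and the dashed line marks a shorter flank of 200 kb.

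Beyond the flanks, the next segment was most often type 4. Of the 2314 outer borders of the flanks, 1558 (67.3%) met another type 4 segment, 294 (12.7%) type 1, 260 (11.2%) type 2 and 202 (8.73%) type 3. Borders were counted for each domain, so a flank between 2 domains counts from each side and meets type 4 by definition. The share at other type 5 segments was not computed. Type 4 lay beyond both flanks at 581 domains (50.2%) and beyond neither at 180. Of the 1777 flank segments, 537 had such a domain at each end, so that the domains followed each other in chains. Taken as unbroken alternations of domain and flank, they formed 620 runs. There were 358 domains alone in their run (30.9%), 799 (69.1%) in runs of 2 or more, and 39 runs of at least 5.

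The longest run held 11 domains over 910 kb at chr9:97340001-98250000, with 750 kb in the domains and 160 kb in the type 5 gaps between them. Its gaps were 10 to 30 kb wide and its domains 15 to 395 kb. It covers Trim42, which encodes a member of the tripartite motif family, and Clstn2, a 589 kb gene of the calsyntenins, which are postsynaptic adhesion proteins, and 87.3% of the Clstn2 body lay in 5 of the domains. Other runs were mostly type 5: the 10 domains at chr4:63655001-70050000 made up 330 kb and the gaps between them 6065 kb. That run passes the genes of the cytokines Tnfsf15 and Tnfsf8, the matrix protein tenascin C (Tnc), the protease Pappa and the neuronal migration protein Astn2.

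The number per Mb differed between chromosomes, from 0.276 on chromosome 1 to 0.782 on chromosome 18, with 0.470 over all 19. Chromosome 9 had 91 domains (0.730 per Mb) with a median of 40 kb, and they covered 4.77% of it, the highest share. Of the 10 longest domains, 5 were on chromosome 9. The lowest share was on chromosome 12, where 36 domains covered 0.932%. Chromosome 16 had the highest share of type 5 (43.5%) but only 44 domains, with a median of 20 kb. Over the 19 chromosomes, domains per Mb and percent type 5 had a Pearson r of -0.18 and a Spearman rho of -0.19, given as a description of chromosomes that share 1 segmentation.

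**Figure D2:**
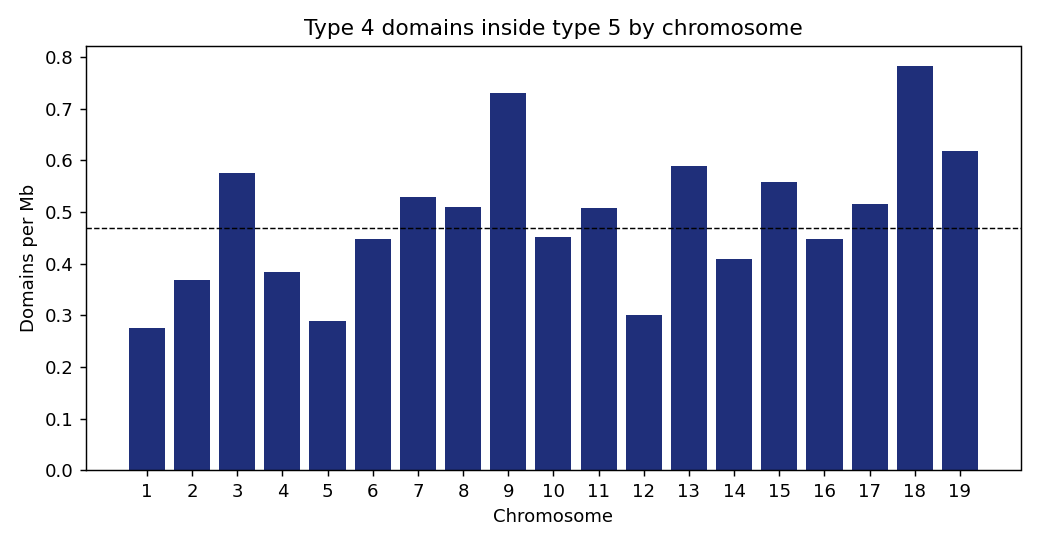
Number of type 4 domains inside type 5 per Mb of each segmented chromosome, with a dashed line at 0.470, the value over all 19. Bars run from 0.276 on chromosome 1 to 0.782 on chromosome 18, and chromosome 9 stands at 0.730.

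Most domains held no whole gene. Of 20558 protein-coding genes, 240 had over 50% of their body in 1 domain, which is 1.17% of genes in 2.17% of the length, and 176 of these lay wholly inside. They were found in 184 domains (15.9%, exact 95% interval 13.8 to 18.1). There were 573 genes (2.79%) that touched a domain by any base, in 604 domains. Intervals of shares here are Clopper-Pearson intervals that cover counting error only, and the domains are not independent of each other. Genes with over 50% of the body inside stood at 4.50 per Mb of domain, between 2.28 per Mb in the flanking type 5 segments and 11.05 per Mb in type 4 between type 3. Over all segments the number was 7.92 per Mb.

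By position, 129 domains (11.1%) held a whole gene, 266 (23.0%) held an end of a gene but no whole gene, 209 (18.1%) lay wholly within gene bodies and 553 (47.8%) touched no protein-coding gene. How domains and flanks of equal length compared depended on the length. Of the 164 domains of 10 kb, 51 (31.1%) held a gene end without a whole gene, against 16 (5.42%) of the 295 flanking type 5 segments of 10 kb. At 15 to 25 kb the shares were 20.8% and 11.1%, at 30 to 50 kb 17.4% and 16.4%, at 55 to 100 kb 28.1% and 14.02%, and above 100 kb 25.7% and 18.2%. The difference was widest at 10 kb and small at 30 to 50 kb. For type 4 between type 3 the shares over the same classes were 26.9%, 32.2%, 29.6%, 29.6% and 21.2%. They were higher than in the domains at 15 to 100 kb and lower at 10 kb and above 100 kb. All these shares leave out segments that hold a whole gene. Above 100 kb a whole gene lay in 33.9% of the domains and in 61.9% of type 4 between type 3. At 30 to 50 kb it did in 11.4% of the domains and in 4.26% of the flanks. The order of these shares is therefore not that of gene ends in general.

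Gene starts were taken from a RefSeq table of start windows that covers 16449 protein-coding genes and does not cover chromosome 18, which leaves 1086 domains. In these, 306 genes had at least 1 annotated start, not always the outermost (1.86% of genes with a window), in 267 domains (24.6%). That is 6.05 such genes per Mb, against 1.81 in the flanking type 5, 9.48 in type 4 between type 3 and 6.93 over all segments. The other type 4 classes were nearer, with 6.52 between types 3 and 5 and 6.46 with other neighbours. Of the 306 genes, 164 (53.6%) also had over 50% of the body in the domain, and these were short, with a median of 11.5 kb. Another 67 genes had their start in the domain and over 50% of the body in type 5. They had a median length of 88.8 kb, of which 11.8% lay in the domain and 74.4% in type 5 (medians). In domains of up to 20 kb, which held 79 start genes, the start lay a median of 1.96 kb from the centre of the domain, and 45 starts (57.0%) lay within 2.5 kb of it. An even spread over a domain of 10 kb gives a median of 2.5 kb, and over the longer of these domains a larger one. The 1.96 kb is over all of these lengths, so how much nearer to the centre the starts lay cannot be read from it.

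The share of domains with a gene start was highest in the most isolated class. It was 25.9% where the shorter flank was 5 to 10 kb (91 of 352), 22.0% at 15 to 20 kb, 21.3% at 25 to 50 kb, 26.6% at 55 to 100 kb and 28.0% above 100 and up to 200 kb. Among the 34 domains with more than 200 kb of type 5 on both sides it was 47.1% (16 of 34, exact 95% interval 29.8 to 64.9). These domains were shorter (median 10 kb) than those with the narrowest flanks (median 40 kb). Among domains of 10 to 20 kb alone the share was 13.98% (39 of 279, interval 10.1 to 18.6) with a shorter flank of up to 50 kb, 28.3% (26 of 92, 19.4 to 38.6) at 55 to 200 kb and 46.7% (14 of 30, 28.3 to 65.7) above 200 kb. Domains of 25 to 50 kb did not show this order: the share was 19.9% (70 of 352) with a shorter flank of up to 50 kb and 12.8% (6 of 47) at 55 to 200 kb, and 3 such domains had more than 200 kb. Domains over 50 kb had 37.8% (99 of 262) and 55% (11 of 20) in the first 2 of these classes. The classes and the threshold of 200 kb were chosen after the values had been seen.

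**Figure D3:**
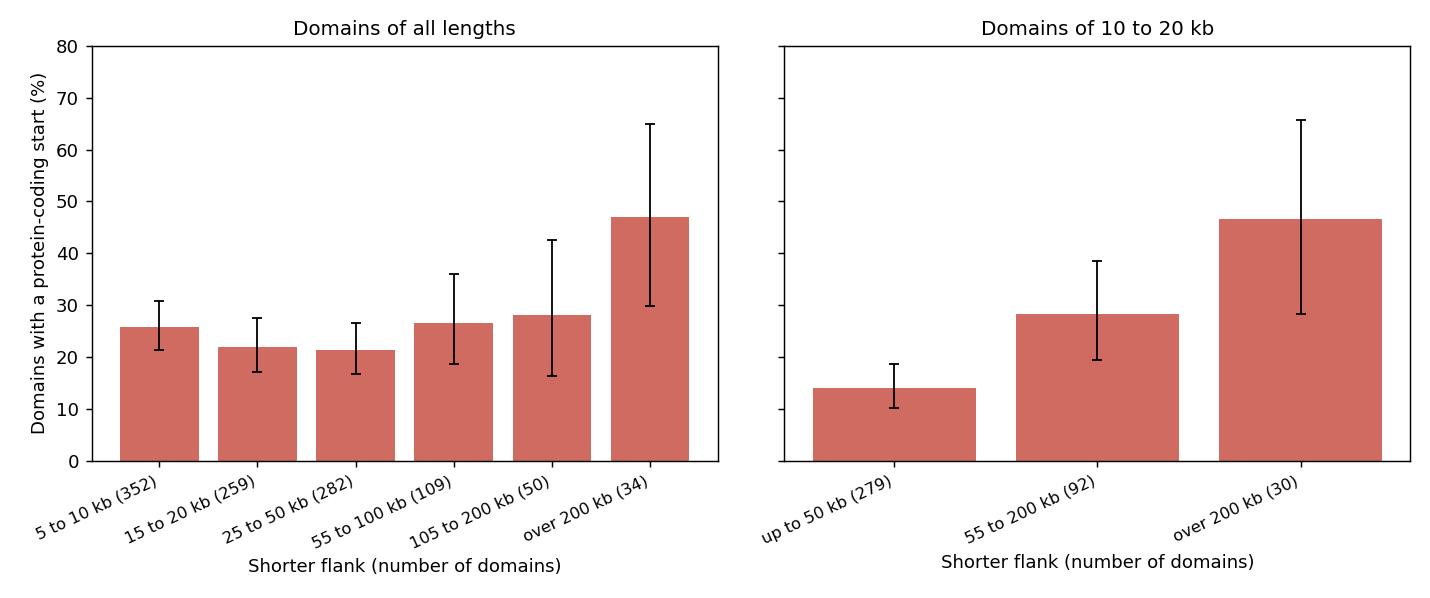
Share of domains that hold the start of a protein-coding gene, in percent, by the shorter flank, for domains of all lengths (left) and for those of 10 to 20 kb (right), with exact 95% intervals and the number of domains in parentheses. On the right the share goes from 13.98% to 46.7% between the narrowest and the widest flanks.

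The most isolated domains stood at genes of neuronal adhesion. The domain with the largest shorter flank, 10 kb at chr14:84440001-84450000, holds the start of Pcdh17, and type 5 extends 2920 kb before it and 2705 kb after it. The next, at chr12:95690001-95700000, holds the start of Flrt2, a fibronectin leucine-rich adhesion protein, between 3505 and 2245 kb of type 5. The domain at chr12:61520001-61530000 holds the start of Lrfn5, a synaptic adhesion protein, between 2135 and 2970 kb. That at chr5:57715001-57725000 holds the start of the protocadherin gene Pcdh7, between 2035 and 2925 kb. In each case the domain is the short type 4 island at the start of a long gene: 6.85% of the body of Pcdh17, 8.58% of Flrt2, 2.13% of Lrfn5 and 2.12% of Pcdh7 lay in it, and the rest was type 5.

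Slitrk5 and Slitrk3, which encode transmembrane proteins that induce synapses, lay whole in domains of 10 kb and 15 kb, at chr14:111675001-111685000 and chr3:73045001-73060000, with shorter flanks of 1735 and 910 kb. The domain at chr4:76445001-76455000 lay inside the body of the receptor phosphatase gene Ptprd. The domain at chr15:48785001-48795000 holds one end of Csmd3, a gene of a large synaptic membrane protein, whose start was not analysed here. The only domain over 20 kb among these 10 was that of Zic1 and Zic4, zinc finger factors of the cerebellum, 75 kb at chr9:91350001-91425000 between 1055 and 900 kb of type 5.

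**Figure D4:**
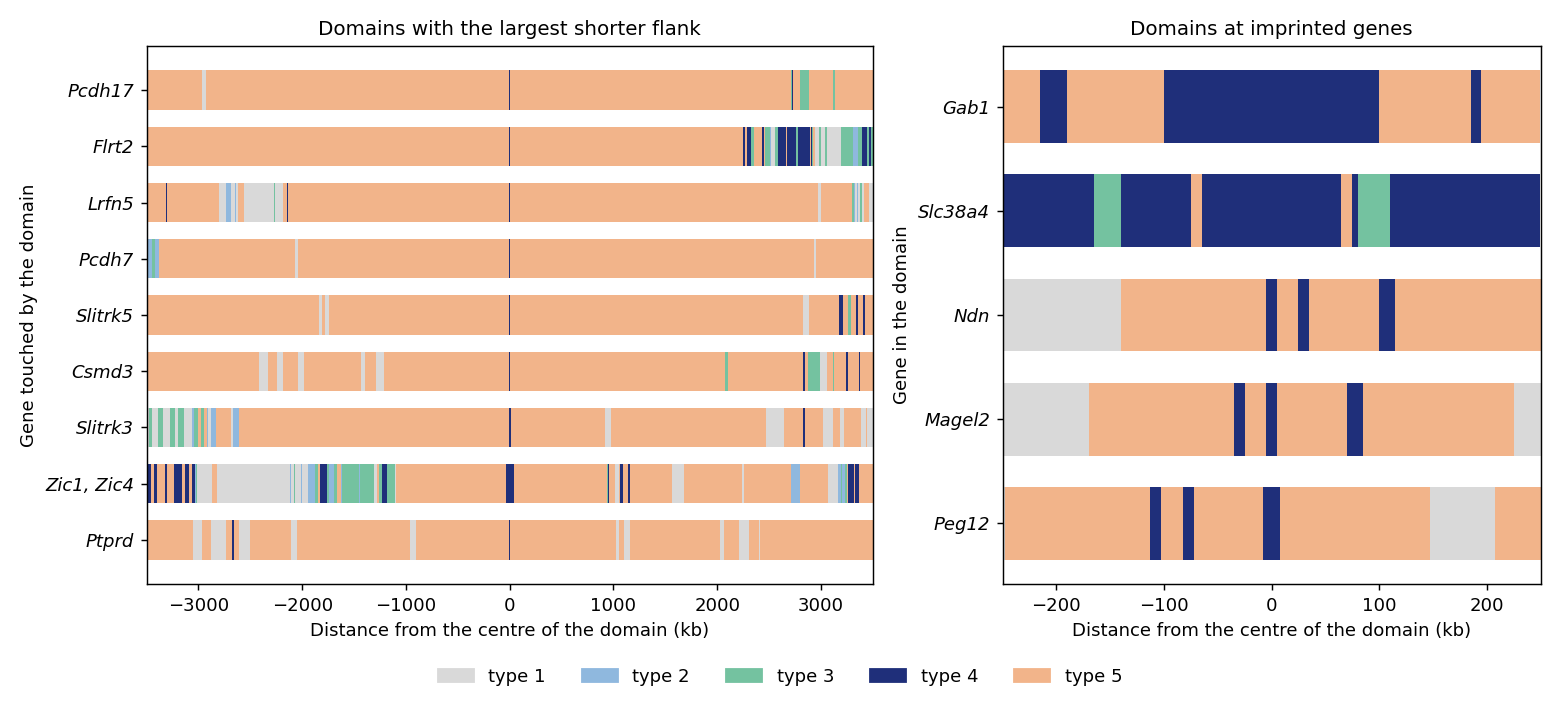
Types of the segmentation by distance in kb from the centre of each domain: left, 9 of the 10 domains with the largest shorter flank, named by the gene they touch; right, domains at 5 imprinted genes on a finer scale. On the left each domain is a thin type 4 line in type 5, of 10 to 75 kb in flanks of 895 kb or more; on the right the Gab1 domain is 200 kb wide, and the narrow type 4 bars beside Ndn, Magel2 and Peg12 include each other's domains.

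Over all 34 domains with both flanks above 200 kb, 18 genes had a start inside. Of these, 9 (50%) belong to a list of 258 neuronal adhesion and guidance genes, against 0.979% of all genes with a start window and 2.62% of the 879 genes that start in type 5 segments above 200 kb. The 9 are Pcdh17, Flrt2, Lrfn5, Pcdh7, Slitrk5, Slitrk3, Astn2, Pcdh18 and Lrrtm1, the last a synaptic adhesion gene that lies within Ctnna2. Another 3 are developmental factors (Zic1, Zic4 and Isl1). The other 6, named after their values were seen, are Htr1b, Dlgap1, the neuropeptide gene Adcyap1, the mineralocorticoid receptor gene Nr3c2, the lipid phosphatase gene Inpp4b and the predicted gene Gm51582. The 68.4 Mb of type 5 flanking these 34 domains held 22 gene starts, of which 1 was of the adhesion list. That is 0.322 per Mb, against 2.12 per Mb in all type 5 above 200 kb, where 372 of the 879 starts were of olfactory receptors and 0 of those 372 lay in these flanks. At domains with a shorter flank of up to 200 kb, 4 of 288 start genes (1.39%) were of the adhesion list. The list was drawn up with earlier results of these data known, and the class was chosen from them, so these shares are descriptions.

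Of these 34, 5 touched no protein-coding gene. One of them, 40 kb with flanks of 1480 and 440 kb, holds the microRNA gene Mir9-2 at chr13:83738814-83738885, 42.9 kb from the nearest protein-coding gene, the myocyte and neuronal factor Mef2c. Another, 10 kb at chr2:98660001-98670000, was the farthest from any protein-coding gene of all 553 gene-free domains, at 1028 kb from Lrrc4c. That interval is known from other mouse sequencing data as one of artificially high signal, and its part in the call was not tested.

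Starts in the isolated domains were also richer in CpG than those in the other domains. Observed to expected CpG, the number of CG divided by the number that the C and G content of the window would give by chance, was computed over the 300 bases from 250 before to 50 after each start. The 369 windows in the domains had a median of 0.47 (quartiles 0.27 and 0.70). Windows in type 4 between type 3 had 0.50, windows in the flanking type 5 had 0.27 and all 20077 windows had 0.59. At least 0.6, a usual mark of a CpG island start, was reached by 35.5% of windows in the domains and by 49% of all. In the 34 most isolated domains the median of 19 windows was 0.66 and 68.4% reached 0.6, while in the type 5 around them the median of 24 windows was 0.37 and 25% reached it. The classes between 5 and 200 kb of shorter flank had medians of 0.42 to 0.52.

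**Figure D5:**
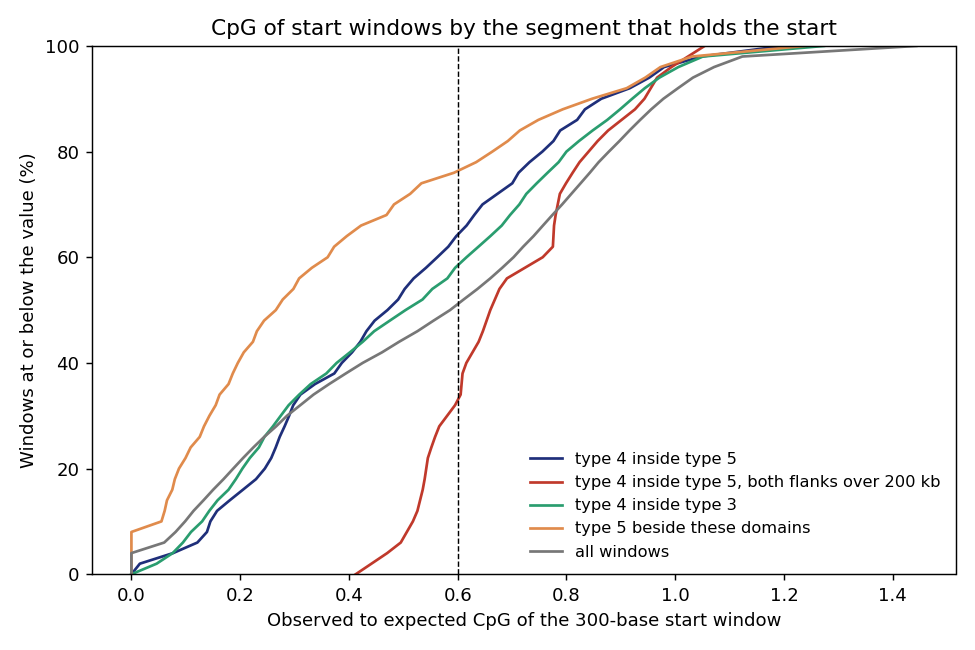
Cumulative share of start windows, in percent, against their observed to expected CpG, by the class of segment that holds the start, with a dashed line at 0.6. The curve of all these domains (median 0.47) lies left of that of all windows (0.59) over the upper part of the range and slightly right of it below about 0.3, and the curve of the 34 domains with both flanks above 200 kb (0.66, 19 windows) runs to the right of both over the lower part of the range.

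The longest domains held genes of several kinds, the adhesion genes Ncam1 and Clstn2 among them. The longest, 540 kb at chr9:32255001-32795000, holds the potassium channel genes Kcnj5 and Kcnj1 and the ETS factor genes Fli1 and Ets1 of blood and endothelium, each wholly inside. The next, 410 kb at chr9:49335001-49745000, holds the dopamine receptor gene Drd2, its neighbours Ankk1 and Ttc12, and 81.7% of Ncam1, the neural cell adhesion molecule. The third, 395 kb, is the largest domain in Clstn2. The fourth, 380 kb at chr9:69610001-69990000, has the forkhead factor gene Foxb1 as its only gene with over 50% inside. The domain of 345 kb at chr2:60605001-60950000 holds most of the integrin gene Itgb6 and of Rbms1, and another of 345 kb at chr4:105830001-106175000 touches no protein-coding gene. The other 4 of the 10 longest hold Ttc29 and the retinal factor gene Pou4f2 (280 kb), Sh3gl3 (260 kb), the transporter gene Abcc12 (260 kb) and the hepatic lipase gene Lipc (250 kb). The shorter flank was 40 kb at the longest domain and 10 kb at the 9 others.

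The longest genes that lay whole in a domain were Ttc29 (181 kb), the bHLH-PAS factor gene Arnt2 (165 kb), Lipc (154 kb), the zinc finger repressor gene Zeb2 (134 kb) and Sh3gl3 (134 kb). The most genes in 1 domain were 6, in 50 kb at chr11:99615001-99665000. They are the keratin-associated protein genes Krtap4-1, Krtap4-2 and Krtap4-7 of the hair shaft with the predicted genes Gm11562, Gm11555 and Gm11563. The domain of 60 kb at chr7:102530001-102590000 followed, with Olfr547, Olfr549, Olfr550 and Olfr551 and the antibody receptor gene Trim21.

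Among developmental transcription factors, 16 of 339 (4.72%, background 1.17%) had over 50% of the body in a domain, in 15 domains, and all 16 lay wholly inside. Irx1 and Irx2, Iroquois factors of 1 cluster, lay in separate domains of 90 and 145 kb. Nkx2-1, the factor of lung, thyroid and ventral forebrain, lay in a domain of 175 kb, and the proneural gene Atoh1 in a domain of 20 kb. Isl1 lay in 25 kb with flanks of 1120 and 245 kb. These domains therefore ranged from islands in wide type 5 to the 380 kb domain of Foxb1 with flanks of 15 and 10 kb. A further 15 factors touched a domain without this much of the body inside (31 of 339, 9.14%, background 2.79%).

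Of 157 developmental ligands, receptors and antagonists, 4 (2.55%, background 1.17%) lay in a domain, each whole: the Nodal antagonist gene Cer1 (110 kb domain), the endothelin receptor gene Ednra (140 kb), Fgf5, a growth factor of the early epiblast (65 kb), and the Wnt receptor gene Fzd6 (165 kb). Of 258 adhesion and guidance genes, 10 (3.88%, background 1.17%) lay in 8 domains by over 50% of the body, while 41 (15.9%, background 2.79%) touched one. The 10 are Clstn2, Ncam1, Pcdh18, Slitrk3 and Slitrk5 and 5 clustered protocadherin genes of chromosome 18, Pcdhac2 and Pcdhb1 to Pcdhb4, in domains of 50, 10 and 15 kb. The 41 include overlapping Pcdha genes that share their 3′ exons, so they are not separate loci, and genes of this list are long (median 102 kb against 17.6 kb for all protein-coding genes).

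Of 264 ion channel and neurotransmitter receptor genes, 7 (2.65%, background 1.17%) had over 50% of the body in a domain. They are Drd2, Htr1b, the glutamate receptor gene Gria1 and the potassium channel genes Kcnj1, Kcnj2, Kcnj5 and Kcnk12, in 6 domains of 15 to 540 kb. Of 142 extracellular matrix genes, 4 (2.82%, background 1.17%) did: the protease gene Adamts1, the collagen gene Col1a2, the cross-linking enzyme gene Lox and Tnc. None of these 4 lay wholly inside.

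Of 5 genes imprinted through oocyte H3K27me3, 2 (40%, background 1.17%) lay in a domain by over 50% of the body, neither of them wholly. With only 5 genes in the list, this share carries little weight. Gab1 had 90.9% of its 116 kb in the domain at chr8:80775001-80975000, with flanks of 90 and 85 kb. Slc38a4, an amino acid transporter gene, had 57.5% of its 61.1 kb in the domain of 130 kb at chr15:96900001-97030000, with flanks of 10 kb on both sides. The Gab1 start shown above lay inside, while the Slc38a4 start inside its domain is not the outermost one annotated. Sfmbt2, a Polycomb group gene, had 13.3% of its body in a domain of 30 kb, 33.2% in type 4 of any kind and 49.0% in type 5. Jade1 and Smoc1 touched no such domain, but 72.4% and 93.7% of their bodies lay in other type 4 and 16.4% and 6.27% in type 5. Of 14 candidate genes of the same class, 2 lay in a domain (background 1.17%): Mbnl2, a splicing factor gene, with 92.5% in 210 kb, and Rbms1, an RNA-binding protein gene, with 93.5% in 345 kb.

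Of 42 genes imprinted through DNA methylation, 4 (9.52%, background 1.17%) had over 50% of the body inside, and 3 of these 4 are neighbours at 1 locus. Ndn, Magel2 and Peg12 lay whole in 3 successive domains of 10, 10 and 15 kb, at chr7:62345001-62355000, chr7:62375001-62385000 and chr7:62450001-62465000. Type 5 of 20 and 65 kb separated them, and 135 and 140 kb of type 5 bordered the group. Each gene is a single short unit of 1.65 to 4.66 kb. Since no domain of the set is under 10 kb, each domain had to be longer than its gene. Sgce, the sarcoglycan gene at another imprinted locus, had 68.6% of its body in a domain of 50 kb.

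Counts were 0 in 3 short lists of genes active in the oocyte and early embryo: 0 of 18 pluripotency genes, 0 of 21 oocyte genes and 0 of 18 genes of the trophectoderm and primitive endoderm had over 50% of the body inside, and of these only Dab2, an endocytic adaptor gene of the primitive endoderm, touched one. These 3 lists are small beside a background of 1.17%, so that a count of 0 says little. The count was also 0 for 80 cytosolic ribosomal protein genes, where it says as little, and for 349 vomeronasal receptor genes (both beside 1.17%). Among the 349, 1 touched a domain (0.287%, background 2.79%). Of 1102 olfactory receptor genes 18 (1.63%, background 1.17%) lay in 9 domains, all whole, among them Olfr1394, Olfr1395 and Olfr56 in 1 domain of 60 kb. Of 386 Zfp genes 3 (0.777%, also beside 1.17%) did: Zfp202, and Zfp799 with Zfp811 in 1 domain.

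The 553 domains with no protein-coding gene had a median distance of 93.8 kb to the nearest one (quartiles 41.6 and 188 kb), and 198 of them touched a long non-coding RNA gene. In all, 338 of 12322 such genes (2.74%) had over 50% of the body in a domain. At 6.33 per Mb they were denser than in the flanks (2.78) and than over all segments (5.001). The 5.001 counts every such gene, without the condition on the body. Protein-coding genes, in contrast, were sparser in the domains than over all segments. The 209 domains within gene bodies lay in 146 genes with a median length of 275 kb.

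Of 1136 microRNA genes, 13 (1.14%) lay in 11 of the domains, which cover 2.17% of the length. The RefSeq table gives 17 mature sequences for 12 of them. All 17 have different seeds, the bases 2 to 8 that pair with target messages and are in capitals here. Those of miR-9 and miR-128, microRNAs of the nervous system, and of miR-708 are shown because they belong to long-known families.
mmu-miR-9-5p, chr13:83738821-83738843, plus strand: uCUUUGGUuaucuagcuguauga
mmu-miR-9-3p, chr13:83738858-83738879, plus strand: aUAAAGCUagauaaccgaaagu
mmu-miR-128-3p, chr9:112118644-112118664, minus strand: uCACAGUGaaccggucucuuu
mmu-miR-708-5p, chr7:96249450-96249472, plus strand: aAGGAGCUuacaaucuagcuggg

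Mir9-2 lies in the isolated domain of 40 kb described above. Mir128-2 lies in a domain of 35 kb with flanks of 55 and 25 kb, inside the body of the neuronal gene Arpp21. Mir708 lies in a domain of 115 kb with flanks of 10 kb on both sides, inside the body of the teneurin gene Tenm4, and Mir5129 in the 170 kb domain that holds Zeb2. Gm51268, annotated as a microRNA gene on the other strand, overlaps Mir9-2, so the 13 genes stand for 12 loci.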

How the data were processed

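CUT&RUN reads of H2Aub and H3K27me3 from oocytes and embryos were handled, per the submitters' processing notes, on the mm10 build with deepTools 3.0.2, Picard 2.8.0, Bowtie2 2.3.4.3 and Trim Galore 0.4.5. The only table analysed here is 1 list of segments that the authors deposited, in which each segment carries 1 of 5 type labels, which are categories and neither counts nor scores. Its name gives ChromHMM, a hidden Markov model of chromatin states. Neither its version nor its input libraries nor its bin size is stated in the sources used here, and depth is unknown.

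Segments were sorted, neighbours were read in that order, and where 118 neighbours overlapped or 21 left a gap the segments were kept as deposited. Genes, start windows and microRNAs came from RefSeq tables of GRCm38.p6. Windows exist for 16449 of 20558 protein-coding genes (80.0%) and were matched by gene identifier, and starts on chromosome 18 were not analysed here. Left out were 333 genes (107 protein-coding) on separate scaffolds. A gene belongs to a domain with over 50% of its body in it. No test was made, since the table has no samples. Scripts ran in Python 3.11.15 with pandas 2.3.3, NumPy 2.4.6, SciPy 1.17.1 and matplotlib 3.10.9, and were tested on simulated data.

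The domains, the 15 gene lists (9 of them taken by symbol pattern) and the naming rule were chosen with earlier results of these data known. Named are the genes of the 10 longest and the 10 most isolated domains, of the 5 with the most genes and of the longest run, the 5 longest genes wholly inside, the first 8 of each list in alphabetical order, and all 5 genes imprinted through oocyte H3K27me3. For start windows the rule takes the 3 highest and 3 lowest in CpG among listed genes with over 50% of the body in a domain. Of these, sequences are shown only where no annotated start of the gene lies further out. Some genes that the rule takes are left unreported. Other names were added after their values were seen. Alternatives varied the handling of overlaps, domain and flank length, gene assignment and biotype, and the start windows used.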

Additional observations from a re-analysis of the deposited data

How the results depend on the processing

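The number of domains (1157), their median length (30 kb), total length (53.4 Mb), genes (240) and share with a gene (15.9%) stayed the same or nearly so with unmerged segments, with overlaps given to the longer segment (1158 domains, 1154 of them identical) or, added after the data had been seen, to the shorter (1160 domains, 1157 identical), and for the 1154 domains that touch both flanks. With domains of at least 25 kb only, 728 domains remained, with a median of 45 kb and 20.7% with a gene. With both flanks of at least 50 kb, 230 remained, with a median of 20 kb, 6.42 Mb in all and 41 genes. The share of domains with a gene was 11.1% for genes wholly inside, 24.6% for gene starts, 39.2% for all annotated genes over 50% inside and 52.2% for genes touching by any base, of which there were 573. Median CpG of the start windows was 0.47, and 0.49 without olfactory and vomeronasal receptor genes as well as with 1 outermost window per gene, an alternative also added later. Of 15 gene lists, the count stayed within 1.5 times for 11 with genes wholly inside and 7 with any base. It did so for 12 with starts and 14 with genes of 1 domain counted once. The 11 and the 14 include lists with a count of 0, which these alternatives could not change, so they overstate the stability. No paired analysis was possible because the table is 1 segmentation with no value for any library, so no replicate could be left out either. Depth is unknown.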

Other observations

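Of the 240 protein-coding genes with over 50% of the body in a domain, 170 belong to none of the 15 lists. The following were picked from them after their values were seen, and their number was compared with no background. Several encode signals of the immune system that cells make on stimulation. Ifng, the gene of interferon gamma, lay whole in a domain of 240 kb with flanks of 10 and 35 kb, and Ifnb1, that of interferon beta, in 20 kb with flanks of 25 kb on both sides. The interleukin genes Il12b and Il1b lay whole in domains of 125 and 60 kb. The chemokine genes Cxcl1 and Cxcl2 shared a domain of 20 kb, which held all of Cxcl1 and 54.0% of Cxcl2. Cxcl12, another chemokine gene, lay in 160 kb, and Vcam1, the endothelial receptor for leukocytes, in 50 kb. Observed to expected CpG at the start was 0.22 at Ifnb1, 0.44 at Ifng, 0.23 at Il12b and 0.20 at Il1b, each below the median of 0.47 over all windows in the domains, while it was 0.64 at Cxcl12.

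The sex-determination gene Dmrt1 and its relatives Dmrt2 and Dmrt3 lay whole in 1 domain of 240 kb on chromosome 19, with flanks of 10 and 50 kb. The carboxylesterase genes Ces1a, Ces1e, Ces1h and Ces2a, which encode hydrolases of liver and gut, lay in 4 domains of 135, 15, 80 and 115 kb, with 100%, 52.8%, 52.9% and 100% of the body inside. Cyp11b1 and Cyp11b2, the last enzymes of corticosterone and aldosterone synthesis, shared a domain of 25 kb.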
